A study of Caenorhabditis elegans with 3 samples.

Results

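The fbxb genes are a family of Caenorhabditis elegans genes that encode F-box proteins, and the peak lists of a chromatin immunoprecipitation (ChIP-seq) of the nuclear receptor UNC-55 were read around each of them. Members were taken from the Ensembl WBcel235 annotation as the protein-coding genes whose symbol is fbxb followed by a number, which gave 104 of 19973 protein-coding genes. The 3 biological replicates formed 1 group of whole L2 larvae of mixed sex, strain NC1639. That strain carries the insertion wdIs49, in which the ttr-39 promoter drives UNC-55a joined to GFP, with dpy-20+ as a second element. The ttr-39 promoter is used to express genes in GABA motor neurons, so most nuclei in a whole larva are not of the cells the transgene is aimed at, and peaks cannot be assigned to a cell type here. Labels differ on the tag, with eGFP in the sample descriptions and GFP-FLAG in a note on replicate 3. Preparation is also described differently, by a fragment size range for replicates 1 and 2 and by sonication for replicate 3. With 1 group and no untreated sample, the design holds no comparison between conditions, and the results below are counts and levels without a test.

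F-box proteins are the adaptors that choose substrates for SCF ubiquitin ligases: the F-box binds an SKP1-like protein (the skr genes in this nematode), which connects to a cullin and a RING subunit, and another domain of the adaptor binds the protein to be tagged with ubiquitin. Caenorhabditis genomes hold a large expansion of F-box genes, among them the fbxa, fbxb and fbxc families, and fbxb products carry a second domain, called F-box associated, beside the F-box. UNC-55 belongs to the COUP-TF class of nuclear receptors, whose members recognise repeats of the hexamer AGGTCA, and in C. elegans it is known for its role in the synaptic identity of a class of GABA motor neurons.

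A gene was counted for a list when a peak summit lay from 2000 bp upstream to 500 bp downstream of one of its transcript starts. Of the 104 fbxb genes, 5 (4.81%) had such a summit of the optimal list, the 5993 peaks that passed the authors' reproducibility threshold, against 25.5% of all coding genes. These were fbxb-58, fbxb-85, fbxb-88, fbxb-10 and fbxb-56, each with 1 optimal peak and each with the summit upstream of its start. Only the fbxb-58 summit lay in no other coding gene's window, so 1 member had an optimal peak of its own, against 11.0% of all coding genes. The other 4 summits each lay in the window of 1 other coding gene. Across the genome 1511 of the 4134 optimal summits in coding windows (36.6%) were shared in this way. Windows of fbxb genes overlap others more: the median share of a window inside another coding window was 52.0%, against 31.8% for all coding genes. When each summit was given to the nearest coding start alone, fbxb-58 and fbxb-85 were the nearest gene, which is 2 members (1.92%) against 22.1% of all coding genes.

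The sequences under the 3 strongest of these peaks are shown because they are the sites at which the family's UNC-55 signal was highest. Each is read on the plus strand of ce11 (WBcel235), 5′ to 3′, and capitals mark the 21 bases centred on the summit. The fbxb-58 stretch is chrX:1627008-1627307, the middle of a peak 539 bp wide. The fbxb-85 stretch is chrIII:10848964-10849153, the part of the peak outside the gene. The fbxb-88 stretch is chrII:4828151-4828371, the whole peak. None of the 3 stretches holds AGGTCA on either strand.
fbxb-58: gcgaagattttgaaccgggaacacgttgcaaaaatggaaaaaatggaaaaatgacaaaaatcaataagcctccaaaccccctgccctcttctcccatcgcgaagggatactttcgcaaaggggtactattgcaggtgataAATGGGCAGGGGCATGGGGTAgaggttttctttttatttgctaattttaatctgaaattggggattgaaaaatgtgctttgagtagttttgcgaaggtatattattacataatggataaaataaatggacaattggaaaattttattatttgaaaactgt
fbxb-85: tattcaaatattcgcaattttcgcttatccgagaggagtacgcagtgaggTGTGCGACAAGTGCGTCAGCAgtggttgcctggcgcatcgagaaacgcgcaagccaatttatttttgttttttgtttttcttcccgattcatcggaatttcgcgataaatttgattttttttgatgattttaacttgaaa
fbxb-88: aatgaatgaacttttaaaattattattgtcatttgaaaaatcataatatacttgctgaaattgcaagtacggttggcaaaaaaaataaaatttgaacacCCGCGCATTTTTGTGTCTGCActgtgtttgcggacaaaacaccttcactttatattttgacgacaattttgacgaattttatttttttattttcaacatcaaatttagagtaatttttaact

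The fbxb-58 peak (chrX:1626879-1627417) ranked 15 of 5993 by the authors' signal value, with a signal of 741.9 where the median optimal peak had 108.5. Its summit lay 979 bp upstream of the fbxb-58 start, in sequence between genes, and no other annotated gene, non-coding genes included, had a window over it. Signals in replicates 1, 2 and 3 were 373.8, 254.8 and 119.7, at ranks 16, 14 and 20 of their lists. The 3 replicate summits lay within 40 bp of the pooled summit. The ranks were close while the signals differed, and the lists themselves differ in scale, their highest signals being 608.4, 463.4 and 208.0. Only 0.968% of optimal peaks were wider.

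The fbxb-85 peak (chrIII:10848887-10849153) had a signal of 406.3 and ranked 155. Its summit was 61 bp upstream of fbxb-85 and 198 bp upstream of hex-3, a hexosaminidase gene that is read in the opposite direction, so the peak sat in the sequence between 2 divergent starts. Signals were 200.6, 135.6 and 68.1 in replicates 1, 2 and 3, at ranks 205, 149 and 160, with summits within 3 bp of the pooled one. Bases within 50 bp of the summit were 53.5% G or C, against 40.6% at the fbxb-58 summit.

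The other 3 optimal peaks were nearer to another gene than to the fbxb gene. The fbxb-88 summit (chrII:4828151-4828371, signal 208.8, rank 1111) lay 376 bp upstream of fbxb-88 and 299 bp upstream of the divergent gene tbck-1, a homolog of a kinase-like protein with a TBC domain. Its replicate signals were 90.9, 68.6 and 39.8, at ranks 1666, 1118 and 891. The fbxb-10 summit (chrII:1820003-1820181, signal 163.9, rank 1755) was 1698 bp from fbxb-10 and 381 bp upstream of fbxc-19, another F-box gene, and fell in an annotated UTR of fbxa-3. Replicate signals there were 66.6, 67.0 and 33.2, at ranks 2621, 1183 and 1292. All 3 of the replicates thus placed the fbxb-88 and fbxb-10 peaks within their strongest 5993.

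The fbxb-56 peak (chrI:14082436-14082771) was the weakest of the 5, with a signal of 58.3 at rank 5077 in a list whose lowest value was 45.8. Its summit was 1908 bp upstream of fbxb-56 and 22 bp upstream of gadr-6. The whole of another member, fbxb-93 (chrI:14083045-14084207), lay between this summit and the fbxb-56 start. Replicate signals were 21.9, 26.3 and 3.87, at ranks 7166, 4268 and 14944, so only replicate 2 held it among its strongest 5993 peaks. The deposited −log10 q-value was 4.18, 4.15 and 1.96 in replicates 1, 2 and 3. The strongest summit of a member outside the optimal list, that of fbxb-100, had a pooled signal of 36.4.

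**Figure D1:**
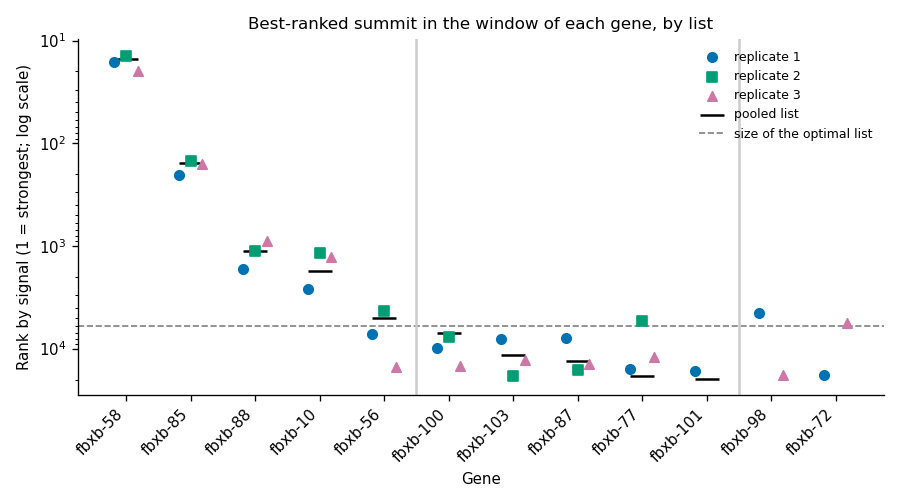
Rank by signal (log scale, 1 at the top) of the best-ranked summit in the window of 12 fbxb genes, in each replicate list (symbols) and in the pooled list (bars), with the size of the optimal list as a dashed line; the first 5 genes have an optimal summit, the next 5 a pooled summit only, and the last 2 neither. Ranks of fbxb-58 run from 14 to 20 and those of fbxb-85 from 149 to 205, while the fbxb-56 ranks lie on both sides of the line. For a given gene, the best summits of different lists can lie at different places in the window.

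The pooled list of 30000 peaks, called on the 3 replicates together and including weak calls, added 5 genes. In all 10 members (9.62%) had a pooled summit, against 43.2% of all coding genes, and 5 of them had one in no other coding window, against 27.3%. Of these 5, fbxb-85 counted only by a weak peak of signal 8.09 in an intron of hex-3, whose start is nearer. The windows of the 10 members held 15 pooled peaks, of which 10 were not in the optimal list and had signals from 8.09 to 36.4, where the median pooled peak had 16.5. The deposited −log10 q-value was 3.31 for the strongest of these 10, at fbxb-100, and from 0.168 to 1.21 for the rest. Of the 15 summits 13 were upstream of the start and 9 lay between genes.

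Among the 5 genes with a pooled peak only, fbxb-100 had 3 peaks, of signal 36.4, 21.5 and 20.8, at 1591, 933 and 404 bp upstream, the first in an intron of tdpt-1, a homolog of a phosphodiesterase that removes proteins from DNA ends. The fbxb-103 peak (signal 20.8) was 1721 bp upstream, inside a coding exon of F53C3.11. The best summits in the fbxb-100 window had signals of 15.6, 13.4 and 3.91 in replicates 1, 2 and 3. Those in the fbxb-103 window had 18.9, 6.0 and 4.47. Within each window, these summits did not all lie at the same place. Peaks of replicates 1 and 2 covered 100% and 98.2% of the fbxb-100 peak of signal 36.4, and no replicate 3 peak overlapped it. Peaks of replicates 1, 2 and 3 covered 84.8%, 14.6% and 20.2% of the fbxb-103 peak. The fbxb-87 peak (signal 18.5) was 63 bp upstream and also in the window of com-1, the CtIP homolog of meiotic break repair. The fbxb-77 peak (signal 13.7) was 96 bp upstream and 352 bp upstream of Y17G9B.11. The fbxb-101 peaks (signals 12.8 and 10.4) were 18 and 279 bp downstream of its start, in a coding exon and an intron of the gene. Among the replicates, only replicate 1 had a peak that overlapped them. A second, weak pooled peak lay in the windows of fbxb-58 (signal 13.9) and fbxb-85 (signal 8.09), and neither was overlapped by a peak of any replicate.

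One stronger peak lay in a member's body, outside the window. It fell in an intron of fbxb-87 (chrIII:10895912-10896090), 1500 bp downstream of the start, with a signal of 154.6 at rank 1938 of the optimal list. Counting the gene body as well gave 6 members with an optimal summit and 11 with a pooled one. Since fbxb-87 already had a pooled summit in its window, the added pooled member is another gene. The shares of all coding genes with gene bodies included are not given here, so these counts stand without a comparison.

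The replicates were also read one by one. Among the 5993 strongest peaks of its list, replicate 1 had a summit at 5 members (4.81%), replicate 2 at 6 (5.77%) and replicate 3 at 5 (4.81%), against 25.7%, 26.1% and 25.8% of all coding genes. The mean was 5.13% ± 0.555 (SD, n = 3) for fbxb and 25.9% ± 0.202 for all coding genes. These SDs describe how far the 3 lists agree, not the uncertainty of a share over genes whose windows overlap. The 4 members fbxb-58, fbxb-85, fbxb-88 and fbxb-10 were in all 3 (3.85%, against 21.6% of all coding genes). The other 4 were in 1 replicate only, and 2 of them, fbxb-98 and fbxb-72, were chosen for mention after their values were seen. The fbxb-98 summit ranked 4453 in replicate 1 (signal 39.2). Replicate 3 had a summit at another place in the window, ranked 18022 (signal 3.16), and replicate 2 had none. The best fbxb-72 summit of replicate 3, at chrV:724279, ranked 5668 (signal 9.89). The best of replicate 1, at another place in the window, ranked 17886 (signal 8.97). Replicate 1 also had a summit close to that of replicate 3, at chrV:724324, which ranked 18370 (signal 8.74). No pooled peak overlapped the fbxb-98 peak of replicate 1 or the best fbxb-72 peak of replicate 3. The same held for 3.22% of the strongest peaks of replicate 1 and 6.47% of those of replicate 3. The fbxb-77 summit ranked 5339 in replicate 2 (signal 20.3). The best summits in its window ranked 15911 in replicate 1 and 12042 in replicate 3, the latter away from the fbxb-77 pooled peak. The replicate 3 peak that overlapped that pooled peak ranked 22458 (signal 2.40). The fbxb-56 peak, described above, was in the strongest peaks of replicate 2 alone.

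In the whole relaxed lists, 21 members (20.2%) had a summit for replicate 1, 13 (12.5%) for replicate 2 and 19 (18.3%) for replicate 3, against 47.1%, 48.3% and 48.7% of all coding genes. The means were 17.0% ± 4.0 and 48.0% ± 0.813 (SD, n = 3). Only 9 members had a summit in all 3 whole lists (8.65%, against 34.9%) and 31 in at least 1 (29.8%, against 63.2%). Of these 31, 21 had none in the pooled list. Their replicate summits were mostly weak, the median ranks being 19456, 24096 and 12639 in replicates 1, 2 and 3. The remaining 73 members (70.2%) had no summit in any of the 5 lists, against 36.4% of all coding genes. Since read counts are not part of the lists, the depth behind an empty window is unknown and a missing summit means only that no peak was listed.

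The family is unevenly placed in the genome. With each chromosome cut into 3 equal parts, chromosome II carries 58 members, 57 of them in its left part, V carries 16, I carries 10, IV carries 9, III carries 8 and X carries 3. Over all chromosomes 66.3% of members lay in a left part and 2.88% in a middle part, where 31.2% and 37.8% of all coding genes lay. The median gap to the nearest other fbxb gene was 1700 bp. Taking members with gaps of up to 20000 bp as a group, 62 lay in 12 groups of at least 3, the largest of 9 genes, 14 lay in pairs and 28 alone. The 12 groups spanned 229.5 kb in all, and no optimal summit and 3 pooled summits fell inside these spans. Of the 62 members in them, 1 had an optimal summit in its window (fbxb-56), and the 37 other coding genes inside the spans had none, optimal or pooled. The other 4 members with an optimal summit, fbxb-58, fbxb-85, fbxb-88 and fbxb-10, all lay more than 20000 bp from the next fbxb gene.

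**Figure D2:**
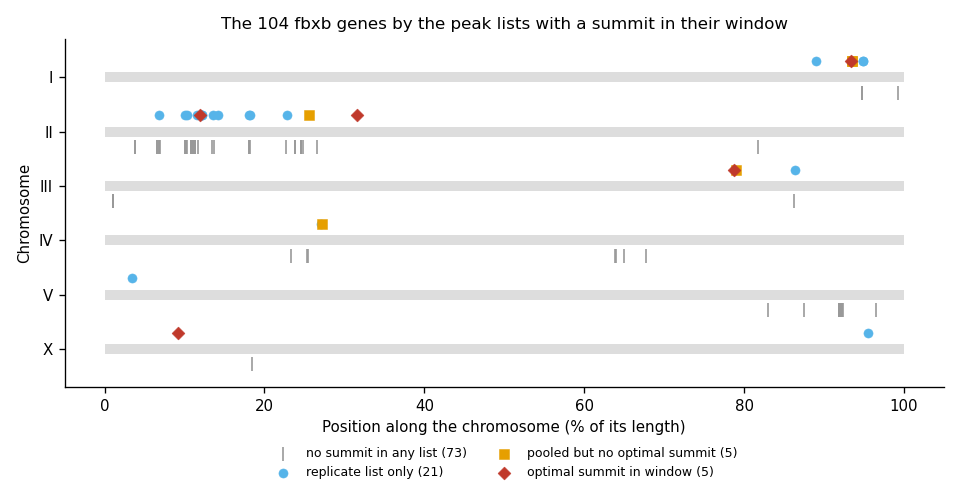
Position of the 104 fbxb genes along each chromosome, as a percentage of its length, with symbols for the lists that have a summit in the gene's window; genes without any summit are drawn under the bar and the rest above it. The left arm of chromosome II holds 57 members, of which 2 have an optimal summit, and the 15 members at the right end of V have none in any list.

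In the arms of II and V where most members lie, a smaller share of the other coding genes had a summit than in the genome as a whole, and the share at fbxb was lower again. In the left part of chromosome II, 2 of 57 members had an optimal summit and 3 (5.26%) a pooled one, where 15.9% and 30.9% of the 1200 other coding genes did. In the right part of V none of 15 members had either, where 12.7% and 24.8% of the other genes did. In the right part of I, 1 of 10 members had an optimal and 3 a pooled summit, where 30.9% and 50.4% of the others did. With other coding genes weighted to lie in the same chromosome parts as the members, 19.6% had an optimal and 36.3% a pooled summit, beside 4.81% and 9.62% for fbxb. The 132 coding genes next to an fbxb gene on either side had an optimal summit in 19 cases (14.4%) and a pooled one in 30 (22.7%). Per length of window, fbxb had 2.15 optimal summits per 100 kb, these neighbours 5.24 and all coding genes 8.84. Windows of members and neighbours overlap, so these 2 sets are not independent.

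Members have close relatives, and reads from repeated sequence may not be placed. The share of 32-base stretches that occur once in the genome had a median of 93.4% over the fbxb windows and of 99.7% over all coding windows, and 35.6% of members fell under 90%, where 17.6% of all coding genes did. Within windows under 90% unique, 1 of 37 members had an optimal summit (2.70%, against 15.1% of all coding genes in that class). From 90% to 99% it was 1 of 43 (2.33%, against 24.5%), and from 99% up it was 3 of 24 (12.5%, against 29.1%). The share was thus lower in fbxb in each class, and higher in the most unique class than in the others. All 5 optimal peaks lay in fully unique sequence, while 6 of the 15 pooled peaks did not. How reads with several matches were treated is not given in the sources used here, and the part of repeated sequence in the low count was not tested.

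Other families were counted in the same way, beside the 25.5% of all coding genes with an optimal and 43.2% with a pooled summit. The fbxa genes had an optimal summit at 21 of 170 (12.4%) and a pooled one at 35 (20.6%), and the fbxc genes at 5 of 48 (10.4%) and 7 (14.6%). An optimal summit in no other coding window was found at 7 of the 21 fbxa genes and 1 of the 5 fbxc genes, where 43.2% of all coding genes with an optimal summit had one. Both are F-box families, and in the strongest peaks of each replicate their means were 12.5% ± 0.899 and 11.1% ± 1.20 (SD, n = 3), beside 5.13% ± 0.555 for fbxb. The bath genes, which encode proteins with a BTB and a MATH domain, had an optimal summit at 9 of 36 (25%), and the skr genes, whose products bind the F-box, at 5 of 20 (25%), both close to the share of all coding genes. The btb genes had one at 3 of 17 (17.6%), and the math genes, which are named for the MATH domain, at 1 of 37 (2.70%).

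**Figure D3:**
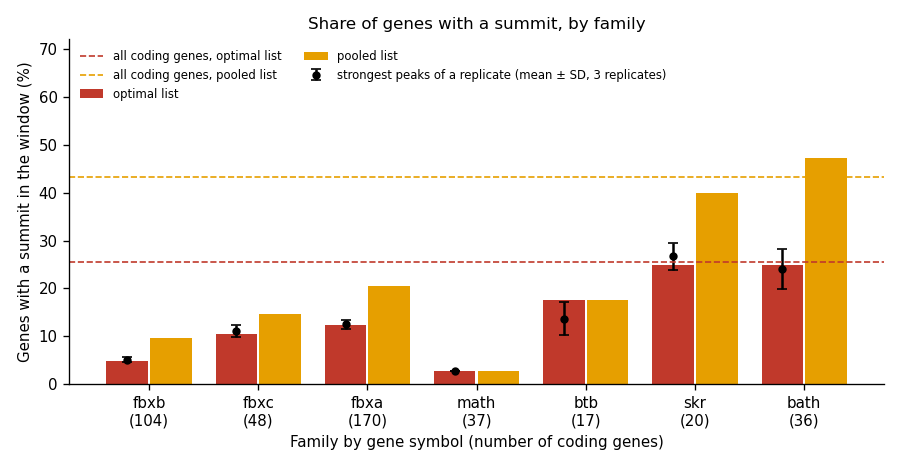
Percentage of genes with a summit of the optimal list (red bars) and the pooled list (orange bars) in their window, by family, with the mean and SD over 3 replicates of the share in each replicate's strongest peaks (points) and the shares of all coding genes (dashed lines). The fbxb bars stand at 4.81% and 9.62%, below those of fbxa and fbxc and above those of math.

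A pair of short lists gives the ligase's partner proteins and F-box genes whose symbols are outside these families. The partner list includes skr-1 and skr-2, which are also counted in the skr family above. Of 7 SCF partners 5 (71.4%, against 25.5% of all coding genes) had an optimal summit, at rbx-1 (signal 151.1, the RING subunit), ned-8 (136.0, the ubiquitin-like modifier of cullins), skr-1 (101.0, the SKP1 homolog), ubc-3 (99.3, the CDC34-type conjugating enzyme) and cul-1 (89.8, the cullin). Of 9 other named F-box genes, most of them with relatives in other animals but including fog-2, which is particular to C. elegans, 6 (66.7%) had one, at mfb-1 (471.0, the atrogin homolog), lin-23 (279.6, beta-TrCP), sel-10 (225.6, Fbw7), fbxl-1 (181.2), dre-1 (94.1, FBXO11) and prom-1 (80.1, FBXO47). By signal, the fbxb-58 peak was stronger than any of these 11, and the fbxb-85 peak stronger than all but that of mfb-1. A summit in no other coding window was found at 3 of the 5 partner genes and 5 of the 6 F-box genes. Of all coding genes with an optimal summit, 43.2% had one in no other coding window.

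A larger share of fbxb promoters than of all coding promoters held the AGGTCA core. In the stretch from 250 bp upstream to 50 bp downstream of the gene's start, 37 of 104 members (35.6%) had AGGTCA on either strand, against 8.27% of all coding genes. The fbxc genes had it at 13 of 48 (27.1%) and the fbxa genes at 7 of 170 (4.12%). The longer form AAGGTCA, which overlaps it, was in 19 fbxb promoters (18.3%, against 3.04%), and GAGAGA in 35 (33.7%, against 21.8%). Of the 42 AGGTCA matches 41 lay upstream, at a median of 86 bp before the start. They stand at 40 positions, since 2 lie in the promoters of both fbxb-93 and fbxb-56, and related promoters share ancestry, so matches are not independent. On the gene's own strand 28 of the 42 read TGACCT and 14 AGGTCA.

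**Figure D4:**
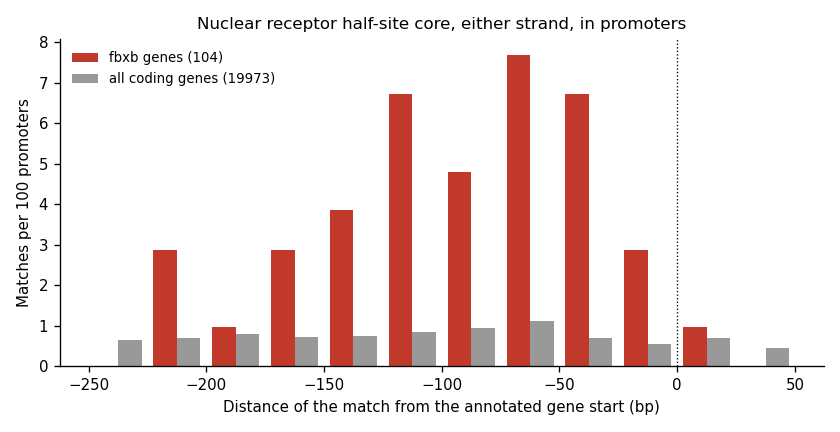
Matches to the nuclear receptor hexamer core on either strand per 100 promoters, in bins of 25 bp by distance from the gene's annotated start, for the 104 fbxb genes (red) and all 19973 coding genes (grey). The fbxb bars reach 7.69 between 75 and 50 bp upstream, where all coding genes stand at 1.12.

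A longer shared stretch runs through some of these matches, TGACCT then any base then TTCC. This form was chosen after the matches had been seen. It was in the promoters of 12 members (11.5%), against 35 coding genes in all (0.175%), and in none of the fbxa, fbxc, bath, math, btb and skr promoters. The 11 stretches shown, of 30 bases from 10 of these genes, let the shared letters and their flanks be compared. The other 2 of the 13 such matches are not printed: that of fbxb-34 lies too close to the start for a stretch outside the gene, and that of fbxb-40 has the opposite orientation, with AGGTCA on the gene's strand. They are read on the gene's strand of ce11, 5′ to 3′, with the hexamer in capitals. The first lies at chrII:999675-999704 (minus strand), with the hexamer 103 bp before the start of fbxb-29, and the last at chrIII:11908860-11908889 (plus strand), 92 bp before that of fbxb-24. The stretches between them are all on chromosome II, and fbxb-37 has 2 of them, 52 and 122 bp before its start.
fbxb-29: ctagcaacTGACCTtttccagccacaccat
fbxb-39: cctcctacTGACCTcttccaacaattagaa
fbxb-17: ctgcgagcTGACCTtttccagccaaaacgc
fbxb-19: tgaccaggTGACCTtttccagaaatcatag
fbxb-35: ctgctcaaTGACCTcttccaatcctacccc
fbxb-37: aaagaatgTGACCTcttccagctctaatcg
fbxb-37: agttctgcTGACCTtttccagctttaataa
fbxb-31: tcatagatTGACCTtttccagacaatcacg
fbxb-33: ttatagatTGACCTtttccagattagcact
fbxb-90: agttccaaTGACCTtttccaatatttttgg
fbxb-24: tgaccaaaTGACCTcttccagccataacag

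The AGGTCA matches were then set against the peaks. Of the 42 matches in fbxb promoters, none lay in an optimal peak, 2 (4.76%, at fbxb-77 and fbxb-101) lay in a pooled peak and 3 (7.14%) in a peak of any list. Of the 1778 matches in all coding promoters, 3.15% lay in an optimal peak, 8.21% in a pooled peak and 20.8% in a peak of any list. Since few members have a peak at all, few such overlaps can arise, and the counts say nothing further about the core. Of the 10 genes shown above none had an optimal summit, and 2, fbxb-39 and fbxb-24, had a summit in any list. Of the 37 members with AGGTCA in the promoter 25 (67.6%) had no summit in any list, and of the 67 without it 48 (71.6%) had none. Over all coding genes these shares were 39.8% and 36.1%. Within 50 bp of the summit, none of the 5 optimal peaks at fbxb genes held AGGTCA, which was in 1.37% of all optimal peaks, and 1 of the 5, at fbxb-10, held GAGAGA, which was in 26.9% of all. A match is a description of letters and does not show that a receptor binds there.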

How the data were processed

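The members and gene lists were chosen with earlier results of these data known. The authors deposited peak lists in narrowPeak format for each replicate, for the replicates pooled, and for the optimal set. Per the notes deposited with the files, the replicate and pooled lists are relaxed calls against 1 shared control, made as input to the irreproducible discovery rate procedure. For the peak caller, aligner and read depth, nothing is given in the sources used here. The deposited signal value of a peak, and the deposited −log10 q-value, come from the authors and serve here to describe and rank peaks inside 1 list. Lists in ce11 were used, and those in ce10 were left out as another build. The pooled list and those of replicates 1 and 2 stop at 30000 peaks, and that of replicate 3 at 25262.

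Summits were placed against coding genes of Ensembl release 115, and sequence was read from the RefSeq assembly of WBcel235, in which all peaks lay inside the chromosomes. Replicates were compared by their 5993 strongest peaks, the size of the optimal list. Motifs were searched on both strands. Genes named are the members with an optimal summit, the other members with a pooled summit by signal, the coding genes sharing those optimal summits, and up to 6 genes of each ligase list by signal. fbxb-98, fbxb-72, fbxb-39, fbxb-24, fog-2 and the genes of the extended hexamer matches fall outside that rule and were chosen after their values were seen. Counts were checked on simulated peaks. Analyses used Python 3.11.15, numpy 2.4.6 and pandas 2.3.3. Replicates are biological per the labels, and SDs describe the spread between these 3 samples.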

Additional observations from a re-analysis of the deposited data

How the results depend on the processing

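With 5 members at an optimal summit, 41 of the 46 recomputed values moved by no more than the limits set for counts and means. For counts the limit was 1.5-fold. Some of the counts are as small as 1 or 2, so the tally is no measure of stability. With the window cut to 1000 bp upstream and 200 bp downstream, 3 members and 3 peaks remained, which are those of fbxb-58, fbxb-85 and fbxb-88 by their distances. With the whole replicate lists in place of their strongest peaks, 9 members had a summit in all replicates and the mean share was 17.0%. With 50% as many strongest peaks that share was 3.85%. A narrower window or a shorter list can only lower such a share, for any set of genes. The shares of all coding genes at these settings are not given here, so the lower values are not results about the members. Leaving out each replicate in turn left the optimal count at 5, the count in all replicates at 4, members nearest to a summit at 2 and own summits at 1, gave 19 to 22 fbxa or fbxc genes instead of 26, and gave a mean share of 4.81% to 5.29%. No paired analysis was possible because the samples form 1 group. Depth is unknown, so a window without a summit is no measure of absence, and leaving out a replicate could only remove optimal peaks, not call new ones.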
